A study of Mus musculus with 2 samples.

Results

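The NF-kB subunits and inhibitors described here are 10 mouse genes, Nfkb1, Nfkb2, Rela, Relb, Rel, Nfkbia, Nfkbib, Nfkbiz, Tnfaip3 and Bcl3. They were taken by symbol from the gene annotation of a single-cell count table, and all 10 were found among its 31053 genes, each on 1 identifier. The cells were bone marrow progenitors of C57BL/6 mice, crushed from hind limbs and sorted as Lineage-, c-Kit+ and Sca1- (LKS-), a gate for progenitors already committed to myeloid, erythroid or megakaryocyte fates. The library labelled Runx1 KO held 7889 cells, and the labels give neither its number of mice nor the Cre that removed Runx1. The Control library held 6906 cells pooled from 1 Runx1f/f mouse and 1 Runx1f/- mouse, so part of the Control cells also carried a germline mutation on a single Runx1 allele. No age or treatment is given in the sources used here for these cells. Transcripts were captured at their 3′ ends with the 10x Genomics version 3 kit and counted as unique molecular identifiers (UMIs). With 1 library per genotype no test between genotypes could be made, and every interval below is an exact 95% interval that covers counting error only, not the spread between mice.

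NF-kB is a family of transcription factors that work as pairs of subunits. In resting cells IkB proteins hold the pairs in the cytoplasm, and signals from Toll-like receptors or cytokine receptors lead to IkB degradation and entry of the pairs into the nucleus. Many inhibitors in the family are themselves transcribed by NF-kB, which closes a negative feedback loop, and in myeloid cells this circuit sets the output of inflammatory cytokines. A transcript count reads how much mRNA each gene had and does not read protein, IkB degradation or nuclear entry.

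Runx1, the targeted gene and a transcription factor of blood progenitors, had 361 counts per 1000000 UMIs (CPM) in the library labelled Runx1 KO and 143 CPM in Control, a ratio of 2.53 (2.49 to 2.57). It was thus higher, not lower, under the KO label, in each of the 10 classes compared below. Counts from the 3′ end do not show whether an upstream exon was deleted, so they do not check the labels, and every direction below rests on them. Cells labelled Runx1 KO had a median depth of 16092 UMIs and summed to 145590840, and Control cells had a median of 21593.5 and summed to 162278272. The authors' annotation places the cells in 18 classes named by a gene, and 10 classes had at least 50 cells in each library. The class mix differed: Pf4, the megakaryocyte class, made up 22.6% of the cells labelled Runx1 KO and 3.21% of Control, and Ly86, the monocyte progenitor class, 7.01% and 19.2%. Marker genes fitted the names of the Pf4 and Ltf classes: the summed level of 8 megakaryocyte markers was 6554 CPM in Pf4 cells labelled Runx1 KO and 6229 CPM in Pf4 cells of Control, and that of 7 mature neutrophil markers in the Ltf class was 346694 and 350996 CPM. They went against the name in Car1 cells labelled Runx1 KO, where the megakaryocyte markers, at 680 CPM, lay above 8 erythroid markers, at 502 CPM, and the gene Car1 had 261 CPM, against 2034 CPM in Control. The gene Fcnb had 12.4 CPM labelled Runx1 KO and 32.4 CPM in Control in the Fcnb class, below its 296 and 525 CPM in Ltf. In Ly86, 7 neutrophil progenitor markers summed to 15112.5 CPM labelled Runx1 KO and 11544 CPM in Control. That lay above 6 monocyte progenitor markers, at 1710 and 1632 CPM, although these sums were the highest of the 10 classes. In CD34 the neutrophil progenitor markers, at 4645 and 5951 CPM, lay above 7 multipotent progenitor markers, at 573 and 580 CPM. There were 13 cell barcodes shared between the libraries.

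Over the whole libraries, 2 of the 10 genes, Bcl3 and Relb, were at least 1.5-fold higher in the library labelled Runx1 KO, and Rel was at least 1.5-fold lower. Among the 12787 genes with at least 100 UMIs over both libraries, 10.8% were at least 1.5-fold higher and 7.8% at least 1.5-fold lower, so the counts of 2 and 1 in 10 lie near what all genes showed. The size of the Bcl3 difference, 4.50-fold, stood out within the family. The median ratio of the 10 genes was 1.15, beside 1.00 for all 12787 genes. Across the named classes, Nfkbib was nearly level, with its highest class 1.26-fold above its lowest in the library labelled Runx1 KO and 1.31-fold in Control. Rel spanned 31.5-fold and 47.5-fold in the same order, and Bcl3 13.3-fold and 19.4-fold.

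**Figure D1:**
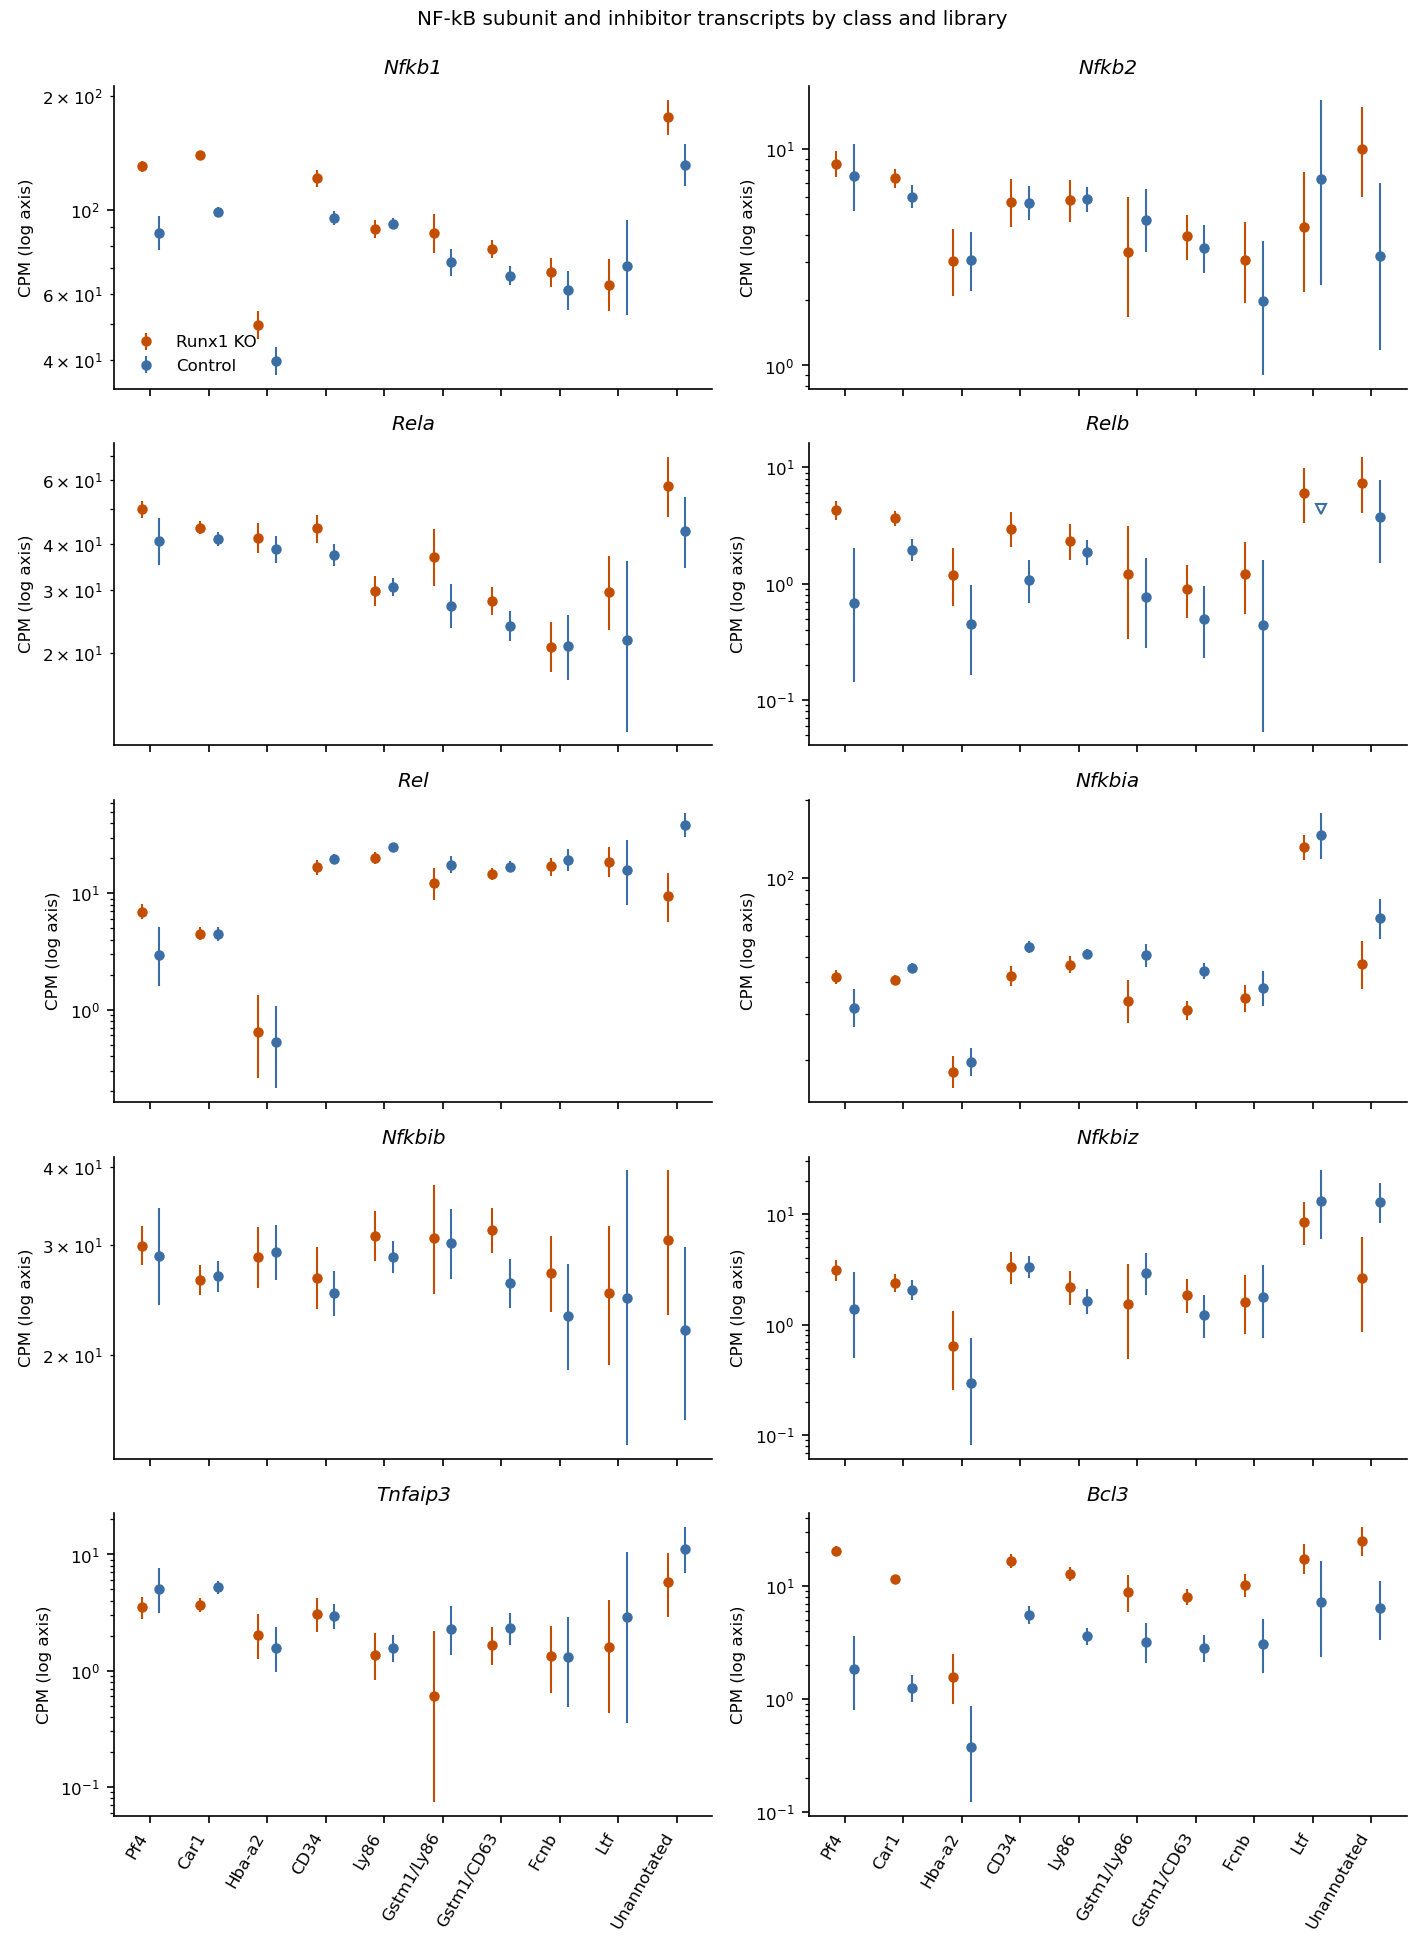
Level of each of the 10 genes in CPM (y axis, log scale, separate range per panel) in the 10 classes with at least 50 cells in each library (x axis), with the library labelled Runx1 KO in orange left of Control in blue; bars are exact 95% Poisson intervals, and an open triangle marks 0 UMIs, drawn at the level that 3 UMIs would give. Bcl3 points labelled Runx1 KO sit above Control in every class, and Rel is lowest in Hba-a2, at 0.643 CPM under the KO label and 0.523 CPM in Control.

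The subunit genes are taken first. Nfkb1 (chr3:135584655-135691547, minus strand, GRCm38, like all locations here) encodes p105, the precursor of the p50 subunit. It had 111 CPM in the library labelled Runx1 KO and 87.1 CPM in Control, a ratio of 1.28 (1.25 to 1.31). In the Car1 class, named for an erythroid gene, it had 139 CPM labelled Runx1 KO and 98.8 CPM in Control (ratio 1.41, 1.36 to 1.47). In the Pf4 class the levels were 130 and 86.9 CPM in the same order (ratio 1.499, 1.35 to 1.67). The CD34 class, which holds early progenitors, had 121 CPM labelled Runx1 KO and 95.4 CPM in Control (ratio 1.27, 1.19 to 1.36). The ratio lay above 1 with its interval in 7 of the 10 classes, which besides these 3 were Unannotated (1.33, 1.13 to 1.58), Hba-a2 (1.24, 1.10 to 1.40), Gstm1/Ly86 (1.19, 1.03 to 1.38) and Gstm1/CD63 (1.18, 1.09 to 1.27). The Ly86 class was level at 89.2 CPM labelled Runx1 KO and 91.8 CPM in Control (ratio 0.97, 0.91 to 1.04). In Fcnb the ratio was 1.11 (0.96 to 1.29). In both libraries Nfkb1 was lowest in Hba-a2, the later erythroid class, at 49.6 CPM labelled Runx1 KO and 39.9 CPM in Control. Its highest level in a named class of the 10 was in Car1 in both libraries, and in Control the Car1, CD34, Ly86 and Pf4 classes followed each other with overlapping intervals.

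Nfkb2 (chr19:46304320-46312385, plus strand) encodes p100, the precursor of p52 in the non-canonical pathway. Its level was 6.20 CPM in the library labelled Runx1 KO and 5.30 CPM in Control (ratio 1.17, 1.06 to 1.29). Pf4 cells had 8.56 CPM labelled Runx1 KO and 7.55 CPM in Control, Car1 cells 7.32 and 6.03 CPM, and Gstm1/CD63 cells 3.95 and 3.49 CPM in the same order. The Pf4 and Car1 classes of both libraries thus held more of it than the Gstm1/CD63 neutrophil progenitors. No ratio in the 6 classes with at least 200 cells per library lay outside 0.99 to 1.22, but with thinned counts the ratio was 1.65 in CD34, 1.40 in Ly86 and 0.19 in Hba-a2. The Unannotated class had 19 UMIs labelled Runx1 KO and 6 in Control (ratio 3.11, 1.20 to 9.52), and with thinned counts that ratio was 0.99. Exons of Psd lie on the other strand of Nfkb2; Psd had 1.15 CPM labelled Runx1 KO and 0.739 CPM in Control.

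Rela (chr19:5637483-5648130, plus strand) encodes p65, the subunit that activates most canonical targets. It had 40.1 CPM in the library labelled Runx1 KO and 34.3 CPM in Control (ratio 1.17, 1.13 to 1.21). By class, ratios ran between 0.97 (0.87 to 1.09) in Ly86 and 1.36 (1.08 to 1.71) in Gstm1/Ly86, the class between granulocyte and monocyte progenitors. Under the alternatives the ratio fell as low as 0.77 in Ly86 and rose as high as 1.502, past 1.5-fold, in Gstm1/CD63. Across the named classes Rela was among the more even genes of the family. Its highest class lay 2.39-fold above its lowest in the library labelled Runx1 KO and 1.98-fold in Control. In Pf4 it had 49.9 CPM labelled Runx1 KO and 40.7 CPM in Control, and in Fcnb, where it was lowest in both libraries, it had 20.9 CPM in each.

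Relb (chr7:19606217-19629438, minus strand) encodes the activating partner of p52. It had 432 UMIs or 2.97 CPM in the library labelled Runx1 KO and 237 UMIs or 1.46 CPM in Control, a ratio of 2.03 (1.73 to 2.39). The Car1 class had 3.64 CPM labelled Runx1 KO and 1.96 CPM in Control (ratio 1.86, 1.43 to 2.43). The CD34 class had 34 UMIs or 2.97 CPM labelled Runx1 KO and 24 UMIs or 1.07 CPM in Control (ratio 2.78, 1.60 to 4.91). The Pf4 ratio of 6.20 (2.07 to 30.6) rests on 107 UMIs labelled Runx1 KO and 3 UMIs in Control. Relb was higher under the KO label in all 9 classes where Control had a UMI, but in the Ly86, Gstm1/CD63, Hba-a2, Fcnb, Gstm1/Ly86 and Unannotated classes the interval of the ratio included 1. In the Ltf class there were 15 UMIs labelled Runx1 KO (5.98 CPM) and 0 in Control. There 3 UMIs would give 4.35 CPM, and the exact interval of Control reached 5.35 CPM. The interval of the Ltf ratio began at 0.99 and so also included 1. The transcript was sparse: 4.82% of cells labelled Runx1 KO and 2.97% of Control cells had a UMI, and with each cell thinned to 5000 UMIs the shares were 1.55% (1.28 to 1.86) and 0.994% (0.766 to 1.27). With the thinned counts the Car1 ratio was 1.23, and the ratio turned below 1 in Ly86 (0.62), Gstm1/CD63 (0.30) and Hba-a2 (0.93), all classes with few UMIs.

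Rel (chr11:23736847-23770970, minus strand) encodes c-Rel, a subunit best known from lymphoid and myeloid cells. Its promoter is shown because it was the only one of the 10 promoters matched to 7 of these genes that held TGTGGT, the core letters that RUNX proteins bind. The sequence, from RefSeq on GRCm38.p6, is chr11:23770920-23771219, minus strand, running 250 bases before to 50 after the start; capitals mark TGTGGT and 2 overlapping matches to kB letters, a form of the sequence NF-kB binds: GGG, any 2 bases, TT, any base, CC, on either strand.
Rel promoter: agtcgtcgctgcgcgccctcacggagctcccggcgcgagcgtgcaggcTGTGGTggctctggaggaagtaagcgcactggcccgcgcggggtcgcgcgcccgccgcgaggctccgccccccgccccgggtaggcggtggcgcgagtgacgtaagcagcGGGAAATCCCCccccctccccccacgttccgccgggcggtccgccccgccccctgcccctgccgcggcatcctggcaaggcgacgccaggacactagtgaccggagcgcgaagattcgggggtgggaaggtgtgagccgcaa
Of all 32851 promoters of this length, 16.8% held TGTGGT on either strand and 4.79% held the kB letters, and a match is a description of letters and not a site shown to be bound. In the library labelled Runx1 KO it had 20.2 CPM in Ly86, 18.8 in Ltf, 17.0 in Fcnb, 16.7 in CD34 and 14.7 in Gstm1/CD63, against 6.96 in Pf4, 4.51 in Car1 and 0.643 in Hba-a2. In Control it had 24.8 CPM in Ly86, 15.9 in Ltf, 19.4 in Fcnb, 19.8 in CD34 and 17.0 in Gstm1/CD63, against 2.97 in Pf4, 4.47 in Car1 and 0.523 in Hba-a2. The order was thus the same in outline in both libraries: monocyte, neutrophil and early progenitors were high, and the Pf4, Car1 and Hba-a2 classes were low. Under the KO label, neighbours from Ly86 down to Gstm1/CD63 had overlapping intervals.

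Over the whole libraries Rel had 9.69 CPM labelled Runx1 KO and 14.5 CPM in Control, a ratio of 0.67 (0.62 to 0.71), at the edge of 1.5-fold. Within classes the difference was smaller. Ly86 had a ratio of 0.81 (0.71 to 0.93), CD34 of 0.84 (0.71 to 0.999), Gstm1/CD63 of 0.87 (0.73 to 1.02) and Gstm1/Ly86 of 0.69 (0.47 to 0.99), while Car1 had 1.01 (0.83 to 1.22). With thinned counts the Gstm1/Ly86 ratio was 1.07. In Pf4 it was higher under the KO label, with 175 UMIs labelled Runx1 KO and 13 UMIs in Control (ratio 2.34, 1.33 to 4.49). When both libraries were weighted to the class shares of Control, Rel had 12.3 CPM labelled Runx1 KO and 14.2 CPM in Control, a ratio of 0.87. Classes in which Rel is low made up more of the cells labelled Runx1 KO, and the weighted ratio lies closer to 1 than the ratio as found. The Unannotated class stood apart, with 9.47 CPM labelled Runx1 KO and 38.6 CPM in Control (ratio 0.25, 0.14 to 0.42). In those cells 6 monocyte progenitor markers summed to 8.95 CPM labelled Runx1 KO, with Ly6c2 at 0, and to 302 CPM in Control, with none at 0. Other lists differed there too: 6 lymphoid progenitor markers summed to 12.1 CPM labelled Runx1 KO and 1500 CPM in Control, mostly from Dntt at 1.05 and 1405 CPM. The 6 dendritic cell markers summed to 40.0 CPM labelled Runx1 KO and 264 CPM in Control, and the 8 megakaryocyte markers to 1369 and 155 CPM in the same order. The part of these cells in the Rel difference was not tested.

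**Figure D2:**
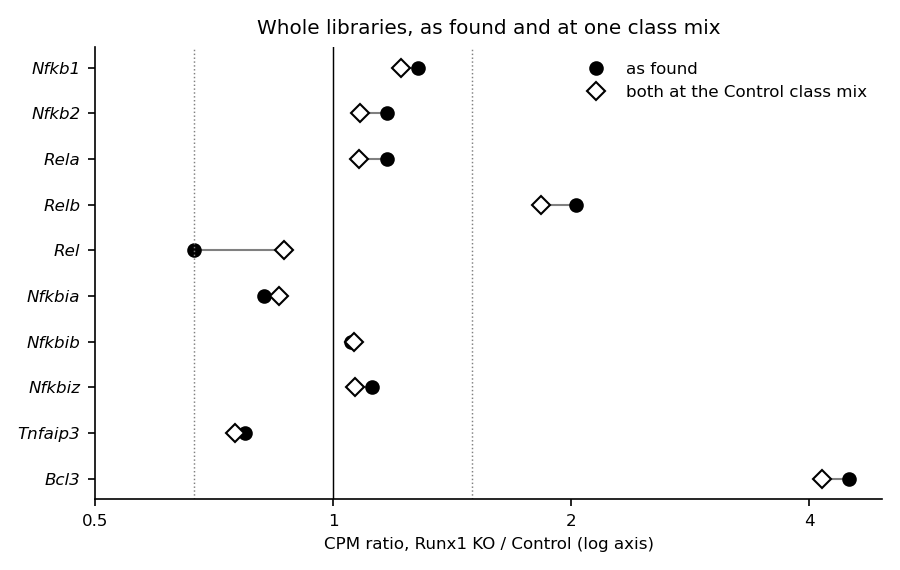
Ratio of CPM, Runx1 KO over Control (x axis, log scale), of each gene over the whole libraries as found (filled circles) and with both libraries weighted to the Control class shares over the 10 classes (open diamonds); dotted lines mark 1.5-fold in either direction. Rel lies at 0.67 as found and 0.87 at the Control mix, while Bcl3 lies at 4.50 and 4.16.

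The inhibitor genes come next. Nfkbia (chr12:55489410-55492647, minus strand) encodes IkB alpha, the inhibitor that is degraded and resynthesised within a response and a classical NF-kB target. Its promoter is printed because this is the best known feedback target in the family, and a kB match begins 29 bases before the start. The RefSeq sequence on GRCm38.p6 is chr12:55492598-55492897, minus strand, and capitals mark the match to the kB letters, which here reads on the opposite strand.
Nfkbia promoter: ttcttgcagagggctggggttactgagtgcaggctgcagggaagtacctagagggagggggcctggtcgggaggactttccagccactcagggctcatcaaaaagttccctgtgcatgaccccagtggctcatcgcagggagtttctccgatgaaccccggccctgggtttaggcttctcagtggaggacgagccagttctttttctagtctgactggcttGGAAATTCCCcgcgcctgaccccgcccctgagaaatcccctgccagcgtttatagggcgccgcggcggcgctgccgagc
Nfkbia had 40.1 CPM in the library labelled Runx1 KO and 48.9 CPM in Control, a ratio of 0.82 (0.79 to 0.85). In CD34 it had 42.1 CPM labelled Runx1 KO and 54.5 CPM in Control (ratio 0.77, 0.69 to 0.86). In Gstm1/Ly86 it had 33.8 CPM labelled Runx1 KO and 50.6 CPM in Control (ratio 0.67, 0.54 to 0.83). The Gstm1/CD63 class had a ratio of 0.70 (0.63 to 0.79), Car1 of 0.90 (0.85 to 0.96) and Ly86 of 0.91 (0.83 to 0.99), which turned to 1.09 when CPM were averaged over cells. Nfkbia was thus lower under the KO label in CD34, Gstm1/CD63 and Gstm1/Ly86 and slightly lower in Ly86 and Car1, all within 1.5-fold. The interval of the ratio included 1 in Fcnb (0.91, 0.75 to 1.11), Ltf (0.90, 0.72 to 1.14) and Hba-a2 (0.91, 0.75 to 1.10). Pf4 differed in direction, with 41.9 CPM labelled Runx1 KO and 31.8 CPM in Control (ratio 1.32, 1.10 to 1.58). The 6 monocyte progenitor markers summed to 153 CPM labelled Runx1 KO and 398 CPM in Control in the Gstm1/CD63 class, with none at 0 in either library. Most of that gap was Ly6c2, at 46.4 CPM labelled Runx1 KO and 334 CPM in Control, while F13a1 went the other way, at 73.4 and 18.9 CPM in the same order; their part in the Nfkbia difference was not tested.

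By class, Nfkbia was highest in Ltf, the most mature neutrophil class, at 132 CPM labelled Runx1 KO and 146 CPM in Control, apart from every other of the 10 classes by its interval. It was lowest in Hba-a2, at 17.99 CPM labelled Runx1 KO and 19.7 CPM in Control. Single cells with many copies were fewer under the KO label: 485 of 7889 cells labelled Runx1 KO and 921 of 6906 Control cells had at least 3 Nfkbia UMIs, and the highest cell had 16 and 47 UMIs in the same order. Control cells were also deeper, as given above. Control also held 337 cells of Prss34, the basophil and mast cell progenitor class, beside 1 cell labelled Runx1 KO. In those Control cells Nfkbia had 106 CPM, and they gave 6.86% of its Control UMIs. The part of depth and of the Prss34 cells in these counts was not tested.

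Nfkbib (chr7:28758251-28767512, minus strand) encodes IkB beta, a slower inhibitor that is not strongly induced. It was the most even gene of the family: across the 9 named classes it ran between 25.1 and 31.7 CPM in the library labelled Runx1 KO and between 23.1 and 30.2 CPM in Control. Over the whole libraries it had 28.5 CPM labelled Runx1 KO and 27.1 CPM in Control (ratio 1.05, 1.01 to 1.10). The Gstm1/CD63 class had 31.7 CPM labelled Runx1 KO and 26.1 CPM in Control (ratio 1.22, 1.07 to 1.38). Exons of Sirt2 overlap Nfkbib on the other strand, with 35.2 CPM labelled Runx1 KO and 40.5 CPM in Control, and since the sources used here do not say whether strand was used in counting, reads of the overlap cannot be told apart.

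Tnfaip3 (chr10:19000910-19015657, minus strand) encodes A20, which edits ubiquitin chains and shuts signalling down upstream of IkB. It had 410 UMIs or 2.82 CPM in the library labelled Runx1 KO and 591 UMIs or 3.64 CPM in Control, a ratio of 0.77 (0.68 to 0.88). The Car1 class had 3.68 CPM labelled Runx1 KO and 5.21 CPM in Control (ratio 0.71, 0.58 to 0.86). In the other 9 classes the interval of the ratio included 1, with as few as 2 UMIs labelled Runx1 KO and 18 in Control in Gstm1/Ly86. Thinned to 5000 UMIs per cell, the ratio was 0.44 over the whole libraries and 0.37 in Car1, past 1.5-fold in both.

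Nfkbiz (chr16:55811375-55838899, minus strand) encodes IkB zeta, an atypical nuclear IkB that co-activates inflammatory genes such as Il6. It had 353 UMIs or 2.42 CPM in the library labelled Runx1 KO and 351 UMIs or 2.16 CPM in Control (ratio 1.12, 0.96 to 1.30). It was highest in Ltf, at 8.38 CPM labelled Runx1 KO and 13.04 CPM in Control, and lowest in Hba-a2, at 0.643 and 0.299 CPM in the same order. In 9 of the 10 classes the interval of the ratio included 1. The exception was the Unannotated class, with 5 UMIs labelled Runx1 KO and 24 UMIs in Control (ratio 0.20, 0.06 to 0.55), the class in which Rel and the monocyte, lymphoid and dendritic markers were also lower and the megakaryocyte markers higher.

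Bcl3 (chr7:19808462-19822770, minus strand) encodes an atypical IkB that stays in the nucleus, binds p50 or p52 pairs and can turn them from repressors into activators. Its promoter is printed because Bcl3 carried the widest difference in the family. The RefSeq sequence on GRCm38.p6 is chr7:19822706-19823005, minus strand; capitals mark the match to the kB letters, on the opposite strand, which begins 2 bases after the start. TGTGGT was not in these letters.
Bcl3 promoter: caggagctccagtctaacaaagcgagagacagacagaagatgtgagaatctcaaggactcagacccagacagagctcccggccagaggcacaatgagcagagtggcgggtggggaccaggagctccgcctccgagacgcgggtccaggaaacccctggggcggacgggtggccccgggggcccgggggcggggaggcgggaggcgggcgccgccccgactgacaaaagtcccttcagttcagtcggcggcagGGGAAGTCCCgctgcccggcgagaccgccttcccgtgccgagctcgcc
Cells labelled Runx1 KO had 1848 Bcl3 UMIs or 12.7 CPM and Control had 458 UMIs or 2.82 CPM, a ratio of 4.50 (4.06 to 4.99). In Car1 it had 579 UMIs or 11.6 CPM labelled Runx1 KO and 56 UMIs or 1.25 CPM in Control (ratio 9.35, 7.10 to 12.5). In Pf4 it had 520 UMIs or 20.7 CPM labelled Runx1 KO and 8 UMIs or 1.83 CPM in Control (ratio 11.3, 5.70 to 26.3). In Control these 2 classes had, after Hba-a2, the lowest Bcl3 levels of the 10. Under the KO label they lay at or above the neutrophil progenitor classes Fcnb and Gstm1/CD63 and the Gstm1/Ly86 class.

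Early and myeloid classes had more Bcl3 in Control and a smaller ratio. The CD34 class had 16.7 CPM labelled Runx1 KO and 5.56 CPM in Control (ratio 3.00, 2.38 to 3.79). The Ly86 class had 12.9 CPM labelled Runx1 KO and 3.598 CPM in Control (ratio 3.58, 2.85 to 4.50). Among neutrophil progenitors, Fcnb had 10.2 CPM labelled Runx1 KO and 3.08 CPM in Control (ratio 3.32, 1.87 to 6.36). Gstm1/CD63 had 8.07 and 2.83 CPM in the same order (ratio 2.86, 2.06 to 4.01). Gstm1/Ly86, between granulocyte and monocyte progenitors, had 8.84 CPM labelled Runx1 KO and 3.20 CPM in Control (ratio 2.77, 1.56 to 4.93). Bcl3 was higher under the KO label in all 10 classes under each of the alternatives run, and the interval of the ratio excluded 1 in 9 of them. The exception was Ltf, with 44 UMIs labelled Runx1 KO and 5 UMIs in Control (ratio 2.42, 0.96 to 7.83). The Unannotated class had 25.3 CPM labelled Runx1 KO and 6.43 CPM in Control (ratio 3.93, 2.06 to 8.13). In Hba-a2, the class with the lowest level in both libraries, 17 UMIs labelled Runx1 KO and 5 in Control gave 1.56 and 0.374 CPM.

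**Figure D3:**
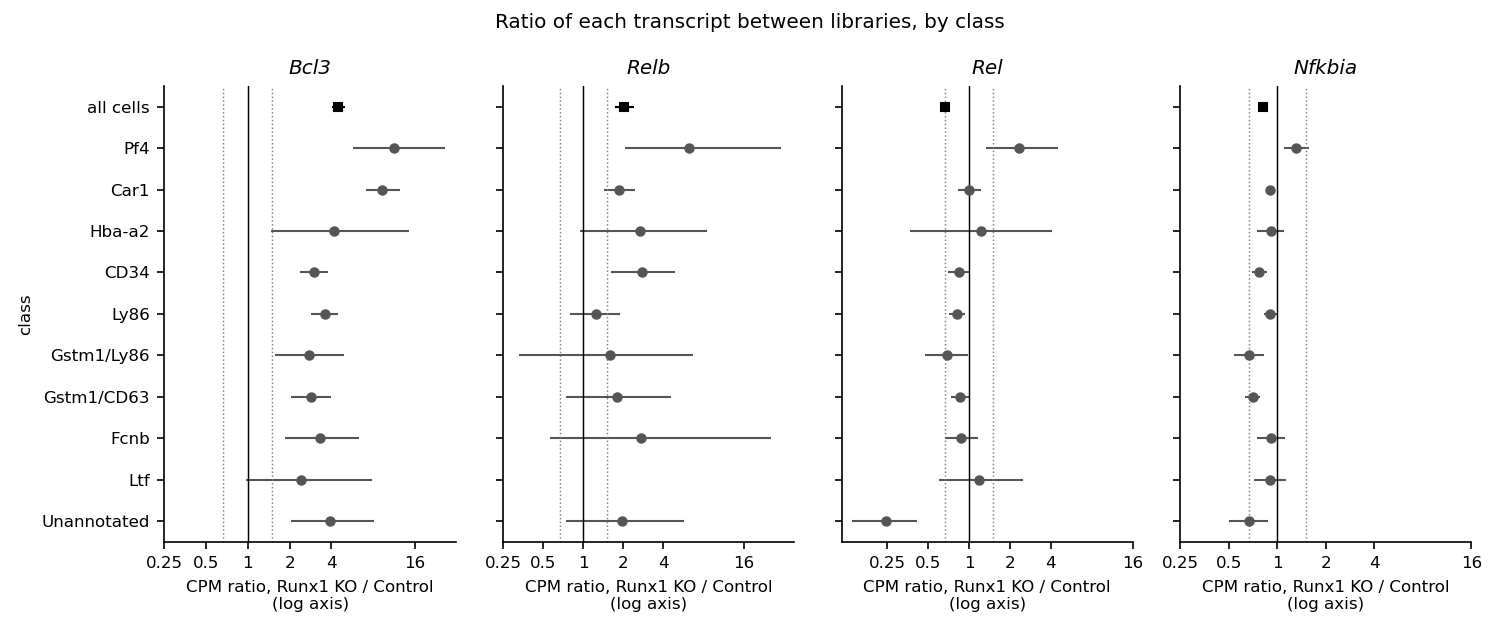
Ratio of CPM, Runx1 KO over Control (x axis, log scale), of Bcl3, Relb, Rel and Nfkbia in all cells (squares) and in each class (circles), with exact 95% intervals for counting error; the solid line is 1 and dotted lines are 1.5-fold, and Relb has no point in Ltf, where Control had 0 UMIs. Every Bcl3 point lies right of 1, Rel lies left of 1 in Ly86 at 0.81 and right of it in Pf4 at 2.34, and Nfkbia lies left of 1 in CD34 at 0.77 and right of it in Pf4 at 1.32.

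The Bcl3 difference was also present at equal depth per cell. With each cell thinned to 5000 UMIs, which left out 346 cells labelled Runx1 KO and 465 Control cells, 6.75% (6.19 to 7.34) of the cells labelled Runx1 KO and 1.68% (1.38 to 2.02) of Control cells had a Bcl3 UMI. Unthinned, the shares were 18.9% and 6.08%. In the Car1 class the thinned shares were 6.16% (5.32 to 7.10) labelled Runx1 KO and 0.477% (0.229 to 0.875) in Control. In Pf4 they were 9.66% (8.29 to 11.2) labelled Runx1 KO and 0.488% (0.0123 to 2.69) in Control. The Hba-a2 class, whose cells were the deepest with medians of 37146 UMIs labelled Runx1 KO and 51294.5 in Control, had 1.02% (0.211 to 2.95) and 0.368% (0.00931 to 2.03). These were the lowest thinned shares among the classes compared in each library. The part of free RNA in the droplets in the share of any class was not tested. The Car1, Pf4, CD34, Ly86, Ltf and Unannotated shares labelled Runx1 KO had intervals above that of Hba-a2. Those of Gstm1/CD63, Fcnb and Gstm1/Ly86 overlapped it. On the thinned counts the CPM ratio was 22.3 in Pf4, 14.1 in Car1, 1.90 in Gstm1/CD63, 1.53 in Gstm1/Ly86 and 1.23 in Ltf.

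**Figure D4:**
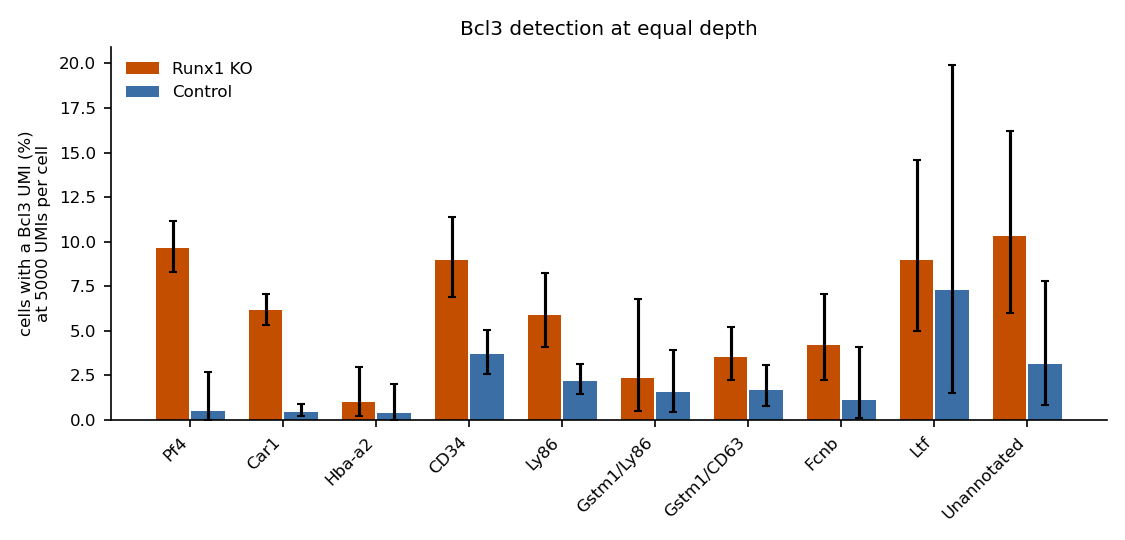
Share of cells with at least 1 Bcl3 UMI after thinning each cell to 5000 UMIs (y axis, percent), by class (x axis), with the library labelled Runx1 KO in orange left of Control in blue and exact 95% binomial intervals. The bars labelled Runx1 KO reach 9.66% in Pf4 and 6.16% in Car1, where the Control bars are 0.488% and 0.477%; in the Gstm1/CD63, Gstm1/Ly86, Hba-a2, Fcnb, Ltf and Unannotated classes the intervals overlap.

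Markers of other cell types moved with the same comparison. The summed level of the 8 megakaryocyte markers was higher under the KO label in all 10 classes, between 69.6 CPM in Fcnb and 6554 CPM in Pf4, against 14.3 CPM in Hba-a2 and 6229 CPM in Pf4 as the ends of the Control range. Under the KO label Ppbp was at 0 in the Unannotated class; in Control Gp1bb, Ppbp and Clec1b were at 0 in Hba-a2. In Car1, 5 of the 8 were at least 1.5-fold higher, with 680 CPM labelled Runx1 KO and 265 CPM in Control. In the same class 7 of 7 mature neutrophil markers were at least 1.5-fold higher, with 154 CPM labelled Runx1 KO and 31.3 CPM in Control, and 8 erythroid markers summed to 502 and 2373 CPM in the same order. The part of these markers' cells in the Bcl3 values of other classes was not tested. Within Pf4, where the sums were 6554 CPM labelled Runx1 KO and 6229 CPM in Control with 5 of 8 markers at least 1.5-fold higher and 1 lower, the Bcl3 ratio was 11.3. In clusters made from the counts of all cells the libraries barely mixed there: 2 clusters in which megakaryocyte markers led held 978 and 1854 cells labelled Runx1 KO beside 5 and 3 Control cells, and another held 1 cell labelled Runx1 KO and 275 Control cells. In the 1841 Car1 cells labelled Runx1 KO and 1669 Control Car1 cells that also fell in clusters in which erythroid markers led, Bcl3 had 9.17 CPM labelled Runx1 KO and 1.11 CPM in Control (ratio 8.27, 5.76 to 12.2). These were largely different clusters, since over all cells the largest of them held 1814 cells labelled Runx1 KO and 12 Control cells, and the next 17 and 1497 in the same order.

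Counts within classes were made where each library held at least 200 cells and over genes with at least 100 UMIs in both libraries together. In Car1, Relb and Bcl3 of 10 genes were at least 1.5-fold higher and none lower, beside 9.1% higher and 5.61% lower among all genes. In Pf4, Relb, Rel and Bcl3 of 9 genes were higher and none lower, beside 12.7% and 6.73%, and Nfkbiz was left out at 84 UMIs. Bcl3 was the gene past 1.5-fold in each of the next 3 classes, always higher: in Ly86 among 8 genes, beside 4.82% higher and 4.3% lower; in CD34 among 9, beside 5.59% and 3.93%; and in Gstm1/CD63 among 7, beside 4.49% and 2.11%. In Hba-a2 none of 4 genes with the minimum passed, beside 5.37% and 2.46%. The median ratio of the genes counted was 1.32 in Pf4, 1.11 in Car1, 1.17 in Gstm1/CD63 and 0.98 in Ly86, beside 1.00, 1.00, 1.02 and 0.98 over all genes in those classes. Counts this small say little of the family as a whole. Bcl3 was past 1.5-fold in the 5 classes where it had the minimum. It lacked the minimum in Hba-a2, with 17 UMIs labelled Runx1 KO and 5 in Control (ratio 4.18, 1.48 to 14.5). Relb was past 1.5-fold in 2 classes, Car1 and Pf4, and not in Ly86, and it lacked the minimum in CD34, Gstm1/CD63 and Hba-a2.

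The small classes are given apart, and in Control the Cd74 class held Nfkb1 and Relb at levels not seen in the 10. Prss34, the basophil and mast cell progenitor class, had 337 Control cells and 1 cell labelled Runx1 KO, so it gives Control levels alone. There Nfkbia had 106 CPM (97.5 to 116), Tnfaip3 16.6 CPM (13.2 to 20.5), Rel 19.1 CPM (15.5 to 23.3) and Bcl3 0.780 CPM (0.213 to 2.00), so that Nfkbia lay above all of the 10 classes in Control but Ltf, and Bcl3 lay below all but Hba-a2. Tnfaip3 in Prss34 lay above all of the 10 by its value, but its interval overlapped that of Unannotated in Control (6.96 to 17.2). The Cd74 class, antigen-presenting progenitors, had 7 cells labelled Runx1 KO and 56 Control cells. It held Nfkb1 at 322 CPM (206 to 479) labelled Runx1 KO and 354 CPM (314 to 397) in Control, above the Car1 level in each library. Relb there had 40.2 CPM (8.29 to 117) from 3 UMIs labelled Runx1 KO and 21.2 CPM (12.3 to 33.9) in Control, above every one of the 10 classes in Control.

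Other genes of the pathway were read from lists set by role. The 3 other IkB family genes, Nfkbie, Nfkbid and Nfkbil1, had whole-library ratios of 0.91, 0.88 and 0.99 and none passed 1.5-fold. Of 11 genes of the IKK complex and its activating kinases, Map3k8, the kinase released from p105, was at least 1.5-fold higher, with 2.09 CPM labelled Runx1 KO and 1.24 CPM in Control (ratio 1.68, 1.40 to 2.01). The next in size were Tab1, an adaptor of the TAK1 kinase, with a ratio of 1.33 (1.25 to 1.42), and Map3k14, the kinase of the non-canonical pathway, with 0.73 (0.66 to 0.81), although in Pf4 Map3k14 had 95 UMIs labelled Runx1 KO and 11 UMIs in Control (ratio 1.50245, 0.80 to 3.11). None of the 5 IkB ubiquitin ligase subunits passed 1.5-fold, with Fbxw11 at 1.18, Skp1a at 0.80 and Rbx1 at 1.03. Map3k8 was thus the only gene of these 3 lists past 1.5-fold over the whole libraries. Among all genes 10.8% were at least 1.5-fold higher and 7.8% at least 1.5-fold lower, and counts this small say little of the lists.

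These lists are read beside the 10.8% of all genes that were higher and the 7.8% that were lower over the whole libraries. Of 12 TRAF, cIAP and CBM adaptors with enough UMIs, Traf1 was higher, with 236 UMIs or 1.62 CPM labelled Runx1 KO and 70 UMIs or 0.431 CPM in Control (ratio 3.76, 2.87 to 4.98). Traf5 had a ratio of 1.38 (1.26 to 1.51) and Traf3, which restrains the non-canonical kinase, of 0.77. Of 10 ubiquitin editors and partners of A20, 2 were higher: Tnip3 with 2.07 CPM labelled Runx1 KO and 1.05 CPM in Control (ratio 1.97, 1.63 to 2.40), and Tnip2 with 12.0 and 7.70 CPM in the same order (ratio 1.56, 1.45 to 1.68). Both encode ABIN proteins, which work with A20. Otud7b, a deubiquitinase, had a ratio of 1.31 (1.23 to 1.40).

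Known NF-kB targets outside the family had ratios on both sides of 1. Of 16 with enough UMIs, 3 were at least 1.5-fold higher, the cytokine gene Il1b, the survival gene Bcl2l1 and Junb, and 4 were lower, the cytokine and chemokine genes Tnf, Il6, Ccl3 and Ccl4, beside the same 10.8% and 7.8% of all genes. Il1b had 2.56 CPM labelled Runx1 KO and 0.838 CPM in Control (ratio 3.06, 2.51 to 3.75). Bcl2l1 had 17.98 CPM labelled Runx1 KO and 6.46 CPM in Control (ratio 2.78, 2.59 to 2.99). Ccl3 had 35 UMIs labelled Runx1 KO and 134 UMIs in Control (ratio 0.29, 0.19 to 0.43). The class mix behind these ratios differed. The Ltf class made up 2.80% of cells labelled Runx1 KO and 0.724% of Control cells, and Prss34 held 1 and 337 cells in the same order. The part of the class mix in these ratios was not tested. In each class read below, Il1b, Tnf, Il6 and Ccl3 either were not past 1.5-fold or lacked the minimum. In Car1, 6 of 11 targets were at least 1.5-fold higher (Icam1, Ier3, Gadd45b, Irf1, Junb and Bcl2l1) and none lower, beside 9.1% and 5.61% of all genes in that class. In Pf4, 6 of 9 were higher (Icam1, Ier3, Irf1, Plaur, Junb and Bcl2l1) and Tnfaip2 was lower, beside 12.7% and 6.73%. In Ly86, 2 of 10 were higher (Ier3 and Gadd45b), beside 4.82% higher and 4.3% lower among all genes. In CD34, of 11, Bcl2l1 was higher and Ccl4 and Tnfaip2 were lower, beside 5.59% and 3.93%. In Hba-a2, Bcl2l1 of 4 was higher, beside 5.37% and 2.46%. In Gstm1/CD63 none of 10 passed 1.5-fold in either direction, beside 4.49% and 2.11%.

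**Figure D5:**
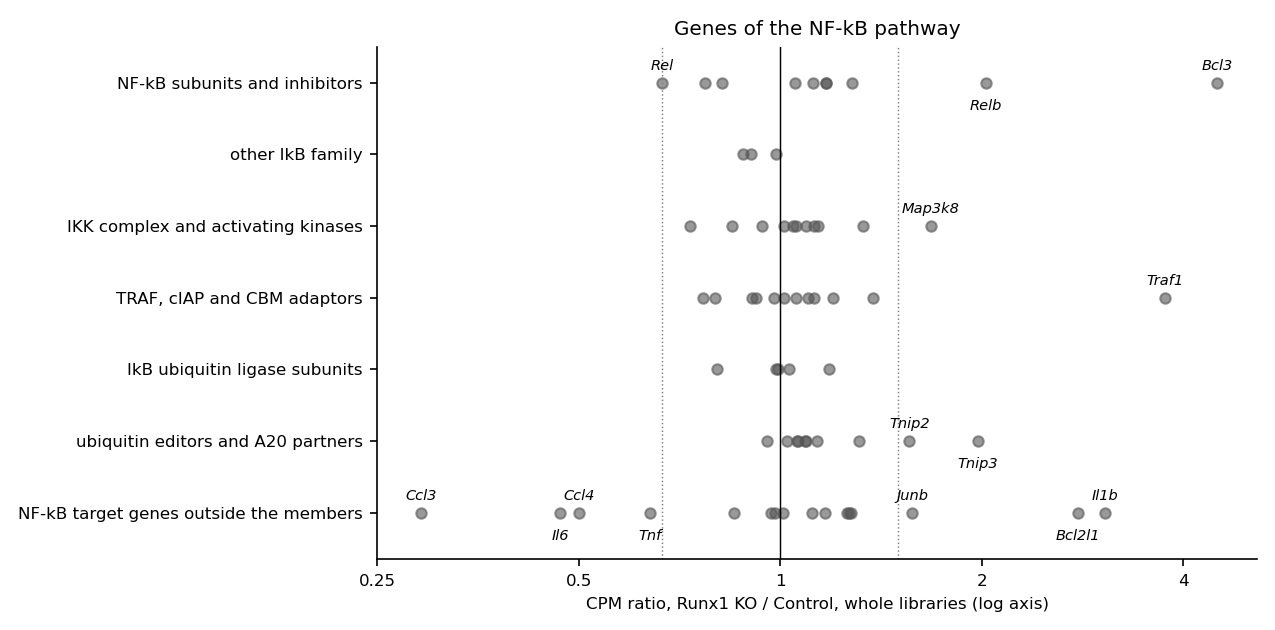
Whole-library ratio of CPM, Runx1 KO over Control (x axis, log scale), of each gene (points) in the family and in 6 lists by role (rows), over genes with at least 100 UMIs; dotted lines mark 1.5-fold and genes at or past it are named. Bcl3 at 4.50 and Traf1 at 3.76 lie farthest right, and Ccl3 at 0.29 farthest left.

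The likeness of each gene to the rest was read as Pearson's r of log2(CPM + 10) over 20 sums, 10 classes in each of 2 libraries, among 6550 genes reaching 30 CPM in at least 1 sum. These are descriptions: sums of a library share its depth and its mice, and the library difference itself adds to r. Bcl3 was most like Socs3 (r = 0.93), an inhibitor of cytokine receptor signalling, and Csf2rb2 (r = 0.90), a beta subunit of the interleukin-3 receptor. Socs3 had 11.6 CPM labelled Runx1 KO and 1.33 CPM in Control (ratio 8.71, 7.55 to 10.1), and 7.99 and 0.401 CPM in the same order in Car1 (ratio 19.9, 12.5 to 34.0). Csf2rb2 had 8.35 CPM labelled Runx1 KO and 3.30 CPM in Control (ratio 2.53, 2.29 to 2.81).

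The nearest genes to the others are given by r alone, and what they share was not tested. Nfkb1 was most like Rasal3 (r = 0.97) and Arhgef2 (r = 0.95), Rela like Kdm5a (r = 0.97) and Naa35 (r = 0.96), and Rel like Traf3ip3 (r = 0.93) and Limd2 (r = 0.91). Nfkbia was most like Gpsm3 and Arhgap4 (r = 0.96 each), Nfkbiz like Ssh2 and Id2 (r = 0.95 each), and Tnfaip3 like Tug1 and Hes1 (r = 0.89 each). Relb was nearest to Parp14 (r = 0.88) and Map1lc3b (r = 0.85), and Nfkb2 to Ski and Faap20 (r = 0.87 each). Nfkbib, the most even of the 10, had the weakest likeness, to Ndufa8 and Thoc6 (r = 0.70 each). Within the family the closest pair was Nfkbia and Nfkbiz (r = 0.86), both highest in Ltf, followed by Relb and Bcl3 (r = 0.77). The lowest r was that of Nfkbib and Nfkbiz (r = -0.59), and it says little. Neighbouring classes of Nfkbib had overlapping intervals throughout in both libraries, and Nfkbiz was sparse, with 4 UMIs in Hba-a2 of Control.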

How the data were processed

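Single-cell RNA was measured in 1 library per genotype. The deposited matrix holds counts, UMIs per gene and cell; Cell Ranger and mm10 are named in the submitters' processing notes, with no version, setting or strand given in the sources used here. The authors also deposited, per cell, counts of UMIs and genes, the fraction of mitochondrial UMIs and other values, the library name and the class. The library named wild type there was taken as Control. A further label calls the cells embryonic; the tissue and extraction fields were followed. The matrix sum equalled the annotated UMIs in all 14795 cells, and no cell had under 1000 genes.

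UMIs were summed per library and class and divided by their total (CPM). Intervals are exact 95% Poisson, conditional binomial for ratios, or Clopper-Pearson for shares; a count of 0 allows 3 counts. Reading past 1.5-fold required 100 UMIs over both libraries. Members and lists were chosen with earlier results of these data known. Named genes were all members, Runx1, up to 3 per pathway list by absolute log2 ratio over the whole libraries, and the 2 most like each member; others (Tnf, Il6, Ccl4, Junb and those named per class) were chosen after their values were seen. Alternatives were TMM (edgeR 4.0.16) and median of ratios scaling, totals without globin and mitochondrial genes, cells under 10% mitochondrial UMIs, no called doublets, thinning, mean over cells, a pseudocount of 10 CPM, other minimums, a fold of 2, the Control class mix and own Leiden clusters (scanpy 1.11.5, 2000 variable genes, 30 components, 15 neighbours, resolution 0.5). Scrublet called 3.08% of cells labelled Runx1 KO and 2.22% of Control cells doublets, which were kept. The counting of calls was tested on simulated data. Locations are from GENCODE on GRCm38, and promoters, for 7 of the 10 members, from RefSeq.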

Additional observations from a re-analysis of the deposited data

Results flagged for a closer look

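Rel and Nfkbia had ratios of Runx1 KO over Control on opposite sides of 1 in different classes, with intervals that exclude 1; the difference between classes was not tested. Rel had a ratio of 2.34 in the Pf4 class, and ratios of 0.815 in Ly86, 0.842 in CD34 and 0.691 in Gstm1/Ly86. Nfkbia had a ratio of 1.32 in Pf4, and ratios of 0.903 in Car1, 0.907 in Ly86, 0.773 in CD34, 0.705 in Gstm1/CD63, 0.668 in Gstm1/Ly86 and 0.667 in the Unannotated class. The Rel value in Pf4 rests on 13 Control UMIs, and that of Nfkbia on 139.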

How the results depend on the processing

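Of 969 ratios recomputed under alternatives, 892 stayed within the counting interval, 77 moved out of it, and 0 of those past 1.5-fold changed direction; sparse genes not past it crossed 1 in several classes, mostly when thinned. The cause of the moves below was not tested, except that thinning and a minimum of 500 UMIs leave fewer genes over the minimum and a pseudocount pulls low genes toward 1. Bcl3 kept a whole-library ratio between 4.16 and 4.73 under 8 alternatives and had 1.77 with a pseudocount of 10 CPM; in Car1 the range was 8.27 to 14.1. Whole libraries: higher genes numbered 1 with the pseudocount; lower genes numbered 2 when thinned or averaged over cells (Rel and Tnfaip3), and 0 with cells under 10% mitochondrial UMIs, the pseudocount, a fold of 2 or the Control class mix. Car1: higher genes numbered 1 when thinned, with the pseudocount, a minimum of 500 UMIs or a fold of 2; lower genes numbered 1 (Tnfaip3) when thinned, averaged over cells or kept to own clusters. Pf4: higher genes numbered 1 when thinned, with the pseudocount or a minimum of 500 UMIs, and lower genes 1 when averaged over cells. Ly86: 0 higher when thinned or with a minimum of 500 UMIs. CD34: 2 higher with no minimum and 0 with 500 UMIs. Gstm1/CD63: 0 higher with the pseudocount or 500 UMIs, 3 with no minimum, and 1 lower when averaged over cells. Hba-a2: 3 higher with no minimum. Other scalings moved the median gene by at most 0.04 on the log2 scale. No paired analysis was possible because each genotype had 1 library. Depth limits Relb, Nfkbiz, Tnfaip3 and Nfkb2, which had under 1000 UMIs in each library, and the Pf4 class of Control, with 222 cells.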

Other observations

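Relb and Bcl3, the family's 2 genes with a whole-library ratio above 1.5, lie on the same 217 kb stretch of chromosome 7 (chr7:19606217-19822770, GRCm38), which was looked at after their values were seen. The table has 16 genes in it, of which 8 had at least 100 UMIs, 5 were at least 1.5-fold higher in the library labelled Runx1 KO and 0 were lower, beside 10.8% and 7.8% of all genes. Relb and Bcl3 are among the 5 because they set the ends of the stretch. The exons of Gm16174 do not overlap those of Bcl3, and whether the genes share reads was not tested. Gm16175, whose exons do overlap those of Bcl3 on the other strand, had 0 UMIs in both libraries. Apoe, which encodes a lipid carrier, had 1937 CPM labelled Runx1 KO and 744 CPM in Control (ratio 2.60, 2.59 to 2.62). Nectin2, an adhesion gene, had 6.70 CPM labelled Runx1 KO and 3.93 CPM in Control (ratio 1.71, 1.54 to 1.89). Gm16174, which lies within Bcl3 on the other strand, had 191 UMIs labelled Runx1 KO and 65 UMIs in Control (ratio 3.28, 2.46 to 4.41). Neighbours between them were near 1: Clptm1 had a ratio of 1.17 (1.12 to 1.21), Tomm40 of 0.94 (0.92 to 0.96) and Apoc1 of 0.93 (0.84 to 1.03).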
